A study of Mus musculus with 6 samples.

Results

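The collagen genes are described here in mouse embryonic stem (ES) cells after 14 days of differentiation, sorted on GFP (green fluorescent protein) expressed from the Nkx2-1 locus and profiled on Affymetrix arrays. The product of Nkx2-1 is a homeodomain protein that controls transcription in thyroid, lung and part of the forebrain. All samples carried the knock-in allele Nkx2-1GFP on the W4/129S6 background. The 3 samples called Nkx2-1 high were GFP-positive (genotype label Nkx2-1GFP+) and the 3 called Nkx2-1 low were GFP-negative (Nkx2-1GFP-), and each group was labelled as biological replicates. The comparison asks how the sorted GFP-positive fraction differed from the GFP-negative fraction at the same day. The collagen genes were taken as every array row with exactly 1 gene symbol made of Col, a number, a and a number. This gave 46 rows and 44 genes of the 19938 genes measured, with the row of the highest mean used for Col6a5 and Col6a6, which had more than 1.

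Collagens are secreted or membrane-bound proteins whose chains wind into a triple helix of repeated glycine-containing triplets, either from copies of 1 chain or from different chains. Fibrillar collagens assemble into the cross-linked fibrils of connective tissue, type IV collagen forms the network of basement membranes under epithelia and around vessels, and FACIT collagens (fibril-associated collagens with interrupted triple helices) sit on the surface of fibrils. The remaining types form beaded filaments, hexagonal networks or anchoring fibrils, or stay in the cell membrane. In embryos, type I and type III collagen are typical of mesenchyme, while nearly all cells that rest on a basement membrane make type IV.

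Of the 44 collagen genes, 5 were higher and 7 lower in Nkx2-1 high (limma, adjusted p under 0.05 over all genes). The 7 that fell were Col1a1, Col1a2, Col3a1, Col4a1, Col4a2, Col6a3 and Col26a1, and the 5 that rose were Col5a2, Col4a6, Col9a2, Col12a1 and Col25a1. The members called made up 27.3% of the collagen genes, where 6.0% of all genes were called, 2.90% higher and 3.09% lower. Changes of at least 2-fold were seen for Col1a2, Col3a1, Col6a3 and Col26a1, all lower, and for Col12a1, which was higher. The median log2 difference (Nkx2-1 high minus Nkx2-1 low) was -0.01 over the collagen genes and -0.01 over all genes. "Rose" and "fell" are used below only for genes past this threshold and refer to Nkx2-1 high relative to Nkx2-1 low. Values are log2 expression, and ± beside a difference is the standard error (SE) from limma. The groups did not overlap for 20 collagen genes (45.5%), the 12 called and 8 others, against 24.7% of all genes. Among genes not called, the groups did not overlap for 8 of 32 collagen genes and for 3722 of 18742 of all genes. The 8 others were Col24a1, Col27a1, Col4a5, Col9a3, Col8a2, Col18a1, Col13a1 and Col23a1.

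The share of called collagen genes was read against the background in each alternative fit as well. All 12 genes were called with arrays centred on their medians (5.77% of all genes called), cyclic loess (6.42%), only genes above background (11.3%), a mean-variance trend with robust variances (7.71%) and the mean over a gene's rows (5.96%). With the replicate number as a block (7.37%), array weights (8.43%) or all rows in the fit (5.01%), 11 were called, without Col9a2. Leaving out Nkx2-1 high replicate 1, 2 or 3 gave 10, 9 and 9 collagen genes where 3.87%, 3.13% and 5.45% of all genes were called, and leaving out Nkx2-1 low replicate 1, 2 or 3 gave 9, 11 and 9 where 3.84%, 3.56% and 4.11% were. Without both samples numbered 3, 9 collagen genes were called beside 4.40% of all genes.

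**Figure D1:**
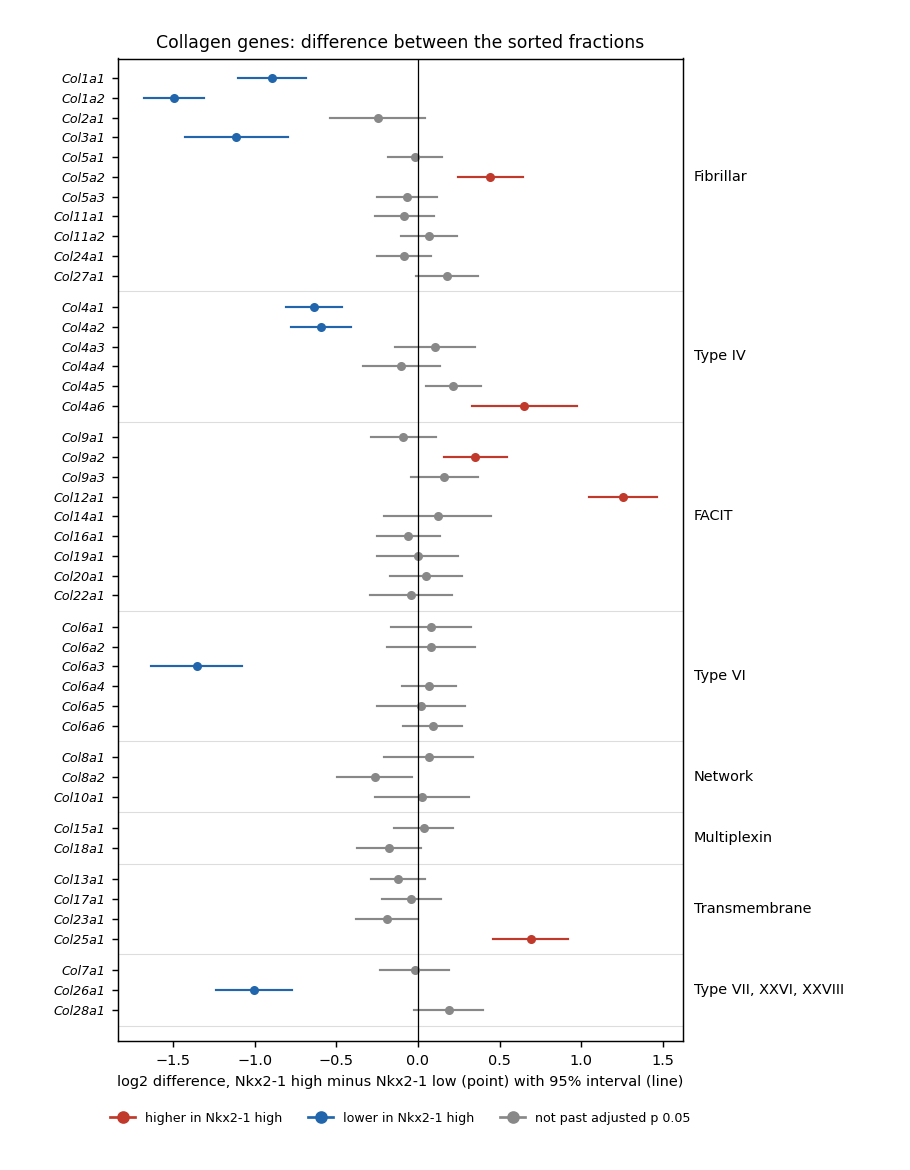
Log2 difference of each of the 44 collagen genes (points, Nkx2-1 high minus Nkx2-1 low, 3 samples per group) with its 95% interval (lines), ordered by type of collagen; red marks genes that rose, blue genes that fell and grey genes that did not pass the test. The 12 called genes are spread over the fibrillar, type IV, FACIT, type VI and transmembrane types and Col26a1, and the grey genes lie between -0.27 and 0.22.

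The label was checked against Nkx2-1 itself, which stood at 7.62, 7.77 and 7.77 in Nkx2-1 high and at 5.42, 5.23 and 5.34 in Nkx2-1 low (limma adjusted p = 3.03e-06). The labels give the cell type as ES cells, but all 3 genes of pluripotent cells (Pou5f1, Nanog and Zfp42) were not above the background level of 4.30, which is the 95th percentile of olfactory and vomeronasal receptor rows. Of the definitive endoderm and epithelial markers, Foxa2 had a mean of 5.74 in the high and 5.78 in the low fraction, and Sox17 was not above background. Sorted bulk samples were measured, so fewer cells of a type and less RNA per cell cannot be told apart. Of the 44 collagen genes, Col10a1, of hypertrophic cartilage, and Col19a1 were not above background in either group.

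Promoter sequence was found in RefSeq's table for 35 of the 44 genes, as windows of 300 bases from 250 before to 50 after an annotated start (build GRCm38.p6). The bases before the start are shown for 2 fibrillar genes that fell, Col1a2 (chr6:4505368-4505617, + strand) and Col3a1 (chr1:45311288-45311537, + strand), and for 1 gene that rose, Col9a2 (chr4:121039316-121039565, + strand). Each stretch lies upstream of its gene and overlaps no other gene of that annotation. Capitals mark matches to a CCAAT box (CCAAT or, on the other strand, ATTGG), a GC box (GGGCGG or CCGCCC) or a TATA box (TATAAA or TTTATA).
Col1a2: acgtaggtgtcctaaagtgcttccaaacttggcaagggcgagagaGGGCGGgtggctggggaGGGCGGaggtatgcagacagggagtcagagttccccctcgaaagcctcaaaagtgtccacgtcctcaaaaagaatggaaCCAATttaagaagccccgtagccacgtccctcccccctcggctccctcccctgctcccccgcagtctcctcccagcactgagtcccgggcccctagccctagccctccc
Col3a1: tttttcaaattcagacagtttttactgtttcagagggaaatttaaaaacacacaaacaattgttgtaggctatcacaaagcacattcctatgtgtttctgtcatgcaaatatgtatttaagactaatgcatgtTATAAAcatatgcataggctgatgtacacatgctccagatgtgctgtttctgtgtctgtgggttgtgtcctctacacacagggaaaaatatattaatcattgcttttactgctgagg
Col9a2: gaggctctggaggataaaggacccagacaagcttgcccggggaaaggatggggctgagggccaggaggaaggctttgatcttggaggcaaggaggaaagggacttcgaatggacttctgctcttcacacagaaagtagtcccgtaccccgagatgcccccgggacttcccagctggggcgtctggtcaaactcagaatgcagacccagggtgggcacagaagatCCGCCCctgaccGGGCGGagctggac

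The 3 promoters differ in these letters. Col1a2 has a CCAAT match whose first base lies 109 bases before the start and GC-box matches at 205 and 188. Col3a1 has only a TATA match, at 117, and Col9a2 has GC-box matches at 26 and 14. A CCAAT match was found in 12 of the 35 collagen windows and in 37.4% of all 32851 windows, and a TATA match in 5 of the 35 and in 13.6% of all. GC-box matches were found in 22 of the 35 and in 35.7% of all. Of the 5 genes with a window that fell (Col1a2, Col3a1, Col4a1, Col4a2 and Col6a3), 3 had a CCAAT match and 3 a GC-box match, and of the 3 that rose (Col4a6, Col9a2 and Col25a1), 1 had a CCAAT match and 3 a GC-box match. The letters CAAGTG or CACTTG, the core of NK-2-type homeodomain sites and also a form of E-box, were in 6 of the 35 collagen windows and 13.6% of all, and in 0 of the 8 windows of called genes. None of these matches shows that a factor binds there.

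Among the fibrillar collagens, the genes of type I and type III collagen fell and the other chains did not fall. Of 11 fibrillar genes, 3 fell (Col1a1, Col1a2 and Col3a1), 1 rose (Col5a2) and 7 did not pass. Col1a2, which encodes the alpha-2 chain of type I collagen, stood at 8.67, 8.64 and 8.54 in Nkx2-1 high and at 10.20, 10.12 and 10.02 in Nkx2-1 low. All Nkx2-1 high samples lay far below all Nkx2-1 low samples, by 2.82-fold in the mean (-1.50 ± 0.08, limma adjusted p = 1.7e-05). Col1a1, the gene of the alpha-1 chain, stood at 9.03, 9.10 and 8.83 against 9.81, 9.97 and 9.88, and was 1.86-fold lower (-0.90 ± 0.09, limma adjusted p = 0.00053). Both groups were tight for the pair, with the sample numbered 3 the lowest of Nkx2-1 high for either gene.

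Col3a1, whose product copolymerises with type I collagen in distensible tissues, stood at 8.74, 8.63 and 8.19 in Nkx2-1 high and at 9.78, 9.64 and 9.48 in Nkx2-1 low. It was 2.16-fold lower (-1.11 ± 0.14, limma adjusted p = 0.00179). The spread of Col3a1 in Nkx2-1 high (SD 0.29, n = 3) was the largest of any collagen gene in either group, where the median SD was 0.10, yet the groups did not overlap.

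Col5a2, which encodes a chain of the type V collagen that nucleates fibrils, went the other way. It stood at 5.83, 5.80 and 5.93 in Nkx2-1 high and at 5.40, 5.55 and 5.28 in Nkx2-1 low, 1.36-fold higher (0.44 ± 0.09, limma adjusted p = 0.0182). The groups did not overlap, but leaving out 1 sample ended the call in 5 of 6 cases (all but Nkx2-1 low replicate 2), where limma's adjusted p reached 0.0637. The partner chain gene Col5a1 stood at 7.28, 7.21 and 7.18 against 7.24, 7.28 and 7.20, a difference of -0.02 with a 95% interval from -0.19 to 0.15.

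The other chains of the minor fibrillar collagens did not pass. Col11a1, of the type XI collagen of cartilage, differed by -0.08 (95% interval -0.27 to 0.10), Col5a3 by -0.07 and Col11a2 by 0.07. Col24a1 (-0.09) and Col27a1 (0.18), the pair of less common fibrillar chains, had groups that did not overlap without passing the test. Col2a1, the main collagen gene of cartilage, stood at 7.22, 7.31 and 7.71 in Nkx2-1 high and at 7.56, 7.59 and 7.82 in Nkx2-1 low. Its groups overlapped, and its interval, from -0.54 to 0.05, was the only one of the 32 collagen genes not called that reached outside -0.5 to 0.5. Of 6 cartilage markers, 5 (Acan, Matn1, Matn3, Hapln1 and Chad) were not above background, Comp stood at 4.64 and 4.61, and 0 were called by limma. Without adjustment, at p under 0.05, 0 of the 6 were higher and 1 was lower, where 8.57% of all genes were higher and 10.4% lower. The list's mean log2 level per sample ran from 3.61 to 3.70 in Nkx2-1 high and from 3.61 to 3.74 in Nkx2-1 low.

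**Figure D2:**
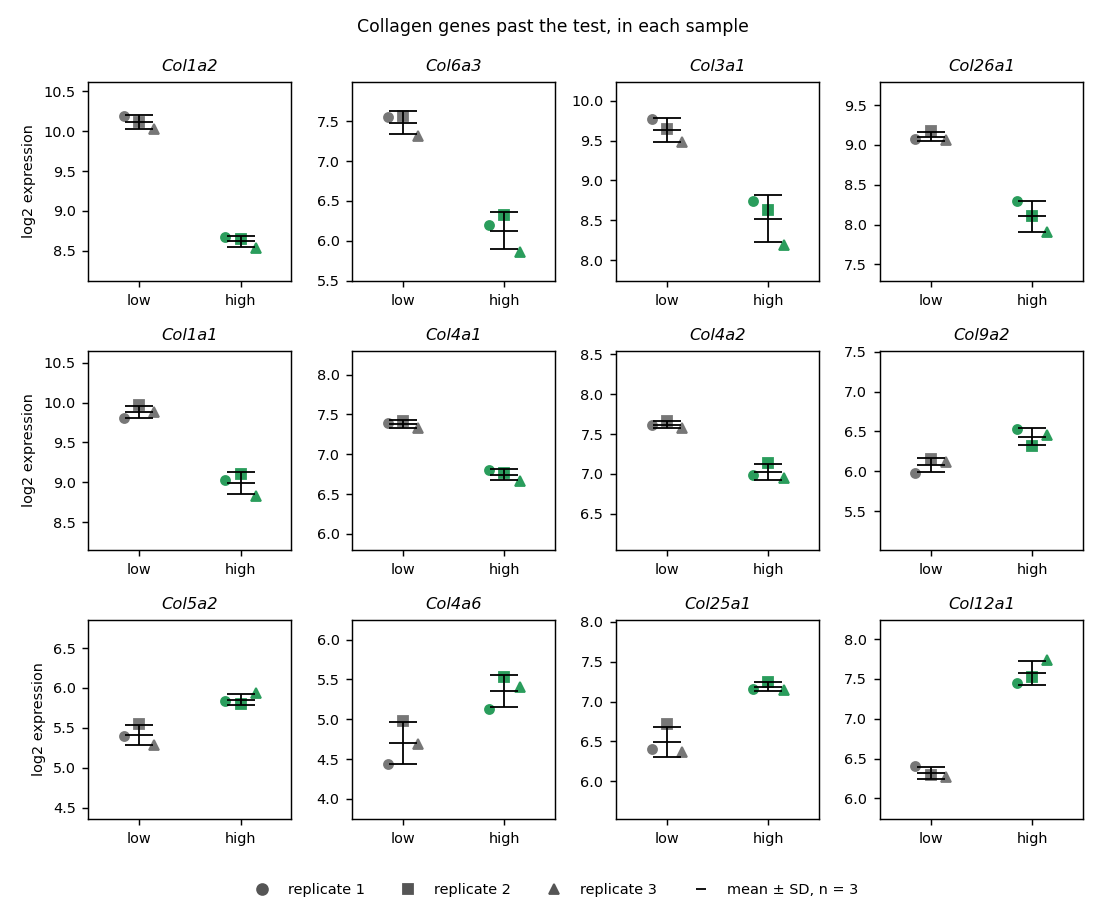
Log2 expression of the 12 called collagen genes in each of the 6 samples, ordered from the largest fall to the largest rise; grey is Nkx2-1 low, green is Nkx2-1 high, the shape gives the replicate number, and bars give the mean ± SD (n = 3). Every panel spans the same range of log2 units, and in each the 3 Nkx2-1 high samples lie wholly above or below the 3 Nkx2-1 low samples.

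The 6 genes of type IV collagen split. Col4a1 and Col4a2, whose chains form the type IV collagen found in nearly every basement membrane, fell together. Col4a1 stood at 6.80, 6.76 and 6.67 in Nkx2-1 high and at 7.39, 7.42 and 7.32 in Nkx2-1 low (-0.64 ± 0.08, 1.55-fold lower, limma adjusted p = 0.0013). Col4a2 stood at 6.99, 7.14 and 6.95 against 7.62, 7.66 and 7.58 (-0.59 ± 0.08, 1.51-fold lower, limma adjusted p = 0.00274). In both genes the Nkx2-1 low samples lay close together and well above all Nkx2-1 high samples. The genes adjoin each other head to head on chromosome 8.

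Col4a6, which with Col4a5 encodes the type IV collagen of a subset of epithelial and smooth muscle basement membranes, rose. It stood at 5.13, 5.52 and 5.41 in Nkx2-1 high and at 4.44, 4.97 and 4.69 in Nkx2-1 low, 1.57-fold higher (0.65 ± 0.14, limma adjusted p = 0.0277). The highest Nkx2-1 low sample was only just under the lowest Nkx2-1 high sample, and the call was lost without Nkx2-1 high replicate 2 or 3 or Nkx2-1 low replicate 1 or 3 (adjusted p up to 0.113). Col4a5, its neighbour on the X chromosome, stood at 5.59, 5.66 and 5.62 against 5.34, 5.44 and 5.45. Those groups did not overlap either, but the difference of 0.22 (95% interval 0.05 to 0.38) did not pass (limma adjusted p = 0.148). Col4a3 and Col4a4, the genes of the type IV chains of the kidney glomerulus and lung alveolus, differed by 0.10 (95% interval -0.14 to 0.35) and -0.10 (-0.34 to 0.13), with overlapping groups.

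Markers of cells that make much type IV collagen were set beside these values. Of 6 genes of parietal endoderm, 1 rose (the laminin gene Lamc1, by 1.13 ± 0.08) and 0 fell, Sox7 was not above background, and the list's mean log2 level ran from 7.15 to 7.35 in Nkx2-1 high and from 7.004 to 7.08 in Nkx2-1 low. Of 6 endothelial genes, 1 rose (Tek) and 0 fell, and Cdh5 was not above background. Tek and Pecam1 were above background in Nkx2-1 high only, with means of 4.19 and 4.10 in Nkx2-1 low. The mean level of that list ran from 4.86 to 5.06 in Nkx2-1 high and from 4.66 to 4.81 in Nkx2-1 low. Sox7, Lama1, Cdh5, Kdr and Cldn5 of these lists had differences below 0 without passing the test (-0.20, -0.16, -0.17, -0.08 and -0.06). Emcn, Pecam1, Sparc, Lamb1 and Thbd had differences above 0 without passing it (0.59, 0.33, 0.32, 0.14 and 0.05). Without adjustment, at p under 0.05, 3 endothelial genes were higher and 0 lower, and 2 parietal endoderm genes were higher and 1 lower. Of all genes, 8.57% were higher and 10.4% lower in that way. The part of these cells in the falls of Col4a1 and Col4a2 was not tested.

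The FACIT collagens held the largest rise of any collagen gene. Of 9 FACIT genes, 2 rose (Col12a1 and Col9a2), 0 fell and 7 did not pass. Col12a1, which encodes type XII collagen of tendon, ligament and other dense connective tissue, stood at 7.45, 7.53 and 7.74 in Nkx2-1 high and at 6.40, 6.29 and 6.26 in Nkx2-1 low. Every Nkx2-1 high sample was more than 1 log2 unit above every Nkx2-1 low sample, and the mean was 2.38-fold higher (1.25 ± 0.09, limma adjusted p = 8.26e-05). Col14a1, the gene of the closely related type XIV collagen, stood at 7.36, 7.14 and 6.89 against 7.20, 7.10 and 6.73, with overlapping groups and a difference of 0.12 (95% interval -0.21 to 0.45).

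Col9a2, one of the chain genes of type IX collagen of cartilage and the vitreous, stood at 6.53, 6.32 and 6.45 in Nkx2-1 high and at 5.98, 6.15 and 6.11 in Nkx2-1 low. It was 1.28-fold higher (0.35 ± 0.09, limma adjusted p = 0.0456), the call nearest to the threshold. Leaving out any 1 of the 6 samples ended the call (limma's adjusted p reached 0.149), as did the replicate number as a block (adjusted p = 0.0611), array weights (0.0636) and all array rows in the fit (0.0619). The other type IX chain genes differed by -0.09 (Col9a1) and 0.16 (Col9a3) and did not pass. Col16a1, Col20a1, Col22a1 and Col19a1 differed by -0.06 to 0.05.

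Of the 6 type VI genes, 1 fell (Col6a3). Type VI collagen forms beaded microfibrils between basement membranes and the fibrillar matrix, classically from the chains of Col6a1, Col6a2 and Col6a3. Col6a3 stood at 6.19, 6.32 and 5.86 in Nkx2-1 high and at 7.55, 7.57 and 7.31 in Nkx2-1 low, 2.56-fold lower (-1.35 ± 0.12, limma adjusted p = 0.000265). The partner genes showed no such gap. Col6a1 stood at 8.06, 7.95 and 7.71 against 7.87, 7.94 and 7.67 (difference 0.08, 95% interval -0.16 to 0.33), and Col6a2 at 7.34, 7.30 and 6.91 against 7.06, 7.22 and 7.02 (0.08, -0.19 to 0.35). Col6a4, Col6a5 and Col6a6, the genes of chains that can stand in for the alpha-3 chain, differed by 0.07, 0.02 and 0.09.

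Among membrane collagens, 1 of 4 genes rose. Col25a1, the gene of a transmembrane collagen made by neurons, stood at 7.16, 7.25 and 7.15 in Nkx2-1 high and at 6.41, 6.71 and 6.36 in Nkx2-1 low, 1.61-fold higher (0.69 ± 0.10, limma adjusted p = 0.00397). The groups were well apart, and the call was kept in all 6 fits without 1 sample. All 4 neuronal markers (Tubb3, Dcx, Stmn2 and Ina) fell, where 3.09% of all genes fell, Dcx and Stmn2 to means not above background. Their mean log2 level ran from 4.37 to 4.64 in Nkx2-1 high and from 5.67 to 5.81 in Nkx2-1 low. Col25a1 and these markers thus went in opposite directions, and the cells that carry the rise of Col25a1 were not tested. Col13a1 of the neuromuscular junction, Col17a1 of the hemidesmosome and Col23a1 differed by -0.12, -0.04 and -0.19 and did not pass.

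Col26a1, which encodes a small secreted collagen with an EMI domain, stood at 8.29, 8.11 and 7.91 in Nkx2-1 high and at 9.08, 9.18 and 9.06 in Nkx2-1 low. All Nkx2-1 high samples were clearly lower, and the mean was 2.0-fold lower (-1.0 ± 0.10, limma adjusted p = 0.00053). Col7a1 of the anchoring fibrils that hold epidermis to dermis differed by -0.02, and Col28a1 by 0.19. The multiplexins Col15a1 and Col18a1, of the zone around basement membranes, differed by 0.03 and -0.18. Of the network-forming collagens, Col8a2 had groups that did not overlap (-0.27, limma adjusted p = 0.186), and Col8a1 differed by 0.07. Apart from Col26a1, none of the genes named beside it passed the test.

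Mesenchymal markers fell or did not pass. Of 9 mesenchymal markers, 4 fell and 0 rose, where 3.09% of all genes fell and 2.90% rose. The 4 were Postn, Pdgfra, Prrx1 and Twist1 (log2 differences of -2.34 ± 0.16, -2.00 ± 0.17, -1.90 ± 0.14 and -0.95 ± 0.12). All 9 were above background in both groups. The mean log2 level of the list ran from 7.01 to 7.41 in Nkx2-1 high and from 7.92 to 8.28 in Nkx2-1 low. The other 5 did not pass. Without adjustment, at p under 0.05, 5 of the 9 were lower (the 4 that fell and Lum) and 0 higher. Of all genes, 10.4% were lower and 8.57% higher in that way. Pdgfrb differed by 0.04, the collagen-binding proteoglycan gene Dcn by 0.16, Twist2 by 0.10 and Thy1 by -0.04, and Lum, of another such proteoglycan, by -0.74 (limma adjusted p = 0.0853). The part of these cells in the falls of Col1a1, Col1a2, Col3a1, Col6a3 and Col26a1 was not tested. Of 3 measured bone markers and 4 smooth muscle markers, 0 were called by limma (without adjustment, at p under 0.05, 2 smooth muscle genes were higher and 0 lower, and 0 bone genes either way). Ibsp was not above background. The mean levels ran from 4.13 to 4.40 against 4.25 to 4.39 for bone and from 5.36 to 5.54 against 5.31 to 5.37 for smooth muscle. Of 7 endoderm and epithelial markers, 1 fell (Epcam, log2 difference -0.81 ± 0.11) and 0 rose. Their mean levels ran from 5.02 to 5.33 in Nkx2-1 high and from 5.20 to 5.37 in Nkx2-1 low. Foxa1, Cdh1 and Foxa2 differed by -0.41, -0.36 and -0.04, and Krt18, Sox17 and Krt8 by 0.35, 0.20 and 0.16, none past the test. Without adjustment, at p under 0.05, 1 of the 7 was higher and 2 were lower.

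Chains of 1 trimer or neighbours in the genome were compared within each sample, as the difference between the log2 values of the 2 genes, which shows unequal change and not which gene changed. For 8 pairs an exact two-sided permutation test was used, where p = 0.1 is the smallest that 3 samples against 3 allow, so no pair could pass. After adjustment over the 8 pairs, an exact permutation p of 0.1 became 0.16 here. Col1a2 minus Col1a1 was -0.36, -0.46 and -0.29 in Nkx2-1 high and 0.39, 0.15 and 0.14 in Nkx2-1 low. The groups did not overlap, and Col1a2 was thus lower by a further 0.60 than Col1a1 (exact permutation p = 0.1). Col4a2 minus Col4a1 was 0.28 ± 0.09 (SD, n = 3) in Nkx2-1 high and 0.24 ± 0.01 in Nkx2-1 low, with overlapping groups (exact permutation p = 0.6). Col6a2 minus Col6a1 was -0.72 ± 0.08 and -0.72 ± 0.08 (exact permutation p = 1). The shift between the fractions was 0.04 for the type IV pair and within 0.01 of zero for the type VI pair.

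In the other pairs tested, the shifts were larger for some. Col3a1 and Col5a2 are next to each other on chromosome 1, and Col5a2 minus Col3a1 was -2.91, -2.83 and -2.26 in Nkx2-1 high against -4.37, -4.10 and -4.19 in Nkx2-1 low, a difference of 1.55 (exact permutation p = 0.1). This was the largest shift of the 8 pairs. Col4a6 minus Col4a5 differed by 0.44 and Col5a2 minus Col5a1 by 0.46, both without overlap (exact permutation p = 0.1 each). Col4a4 minus Col4a3 differed by -0.21, with the groups apart by less than 0.01 (exact permutation p = 0.1), and Col11a1 minus Col5a1 by -0.06 (exact permutation p = 0.3). In 4 further pairs, chosen after their values were seen and not tested, the groups were also apart. The difference was -1.44 for Col6a3 minus Col6a1 and for Col6a3 minus Col6a2, 1.29 for Col4a6 minus Col4a1 and 1.13 for Col12a1 minus Col14a1.

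**Figure D3:**
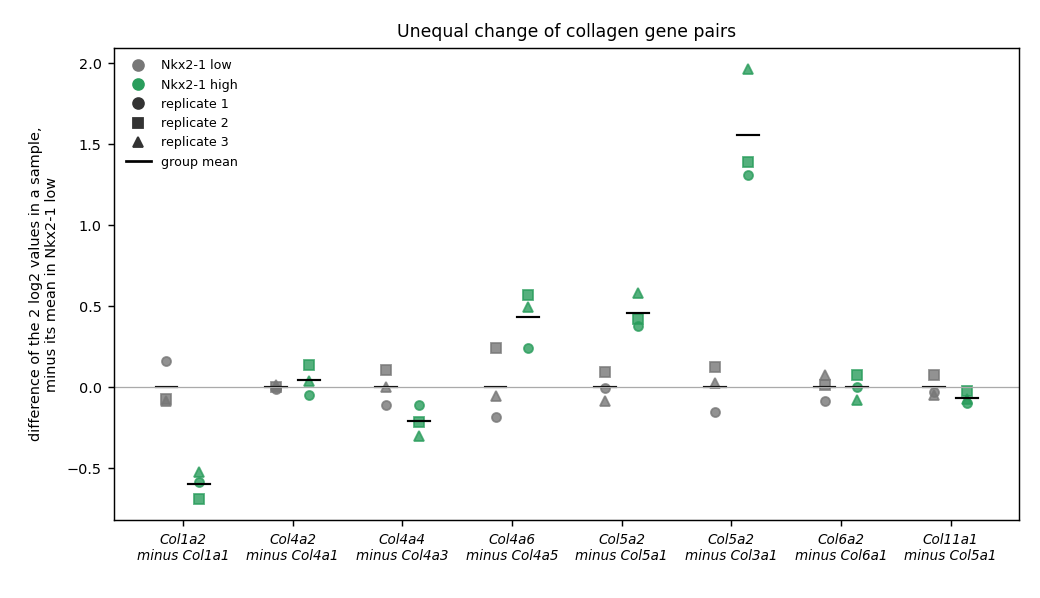
Difference between the log2 values of 2 collagen genes in each sample, minus the mean of that difference in Nkx2-1 low, for the 8 tested pairs; grey is Nkx2-1 low, green is Nkx2-1 high, shapes give replicate numbers and lines give group means. Col1a2 minus Col1a1 lies lower and Col5a2 minus Col3a1 higher in Nkx2-1 high, while Col4a2 minus Col4a1 and Col6a2 minus Col6a1 overlap between the groups.

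The genes that make, bind and break down collagens were counted in the same way. Of 50 listed genes, 46 were measured, 4 rose (Creb3l1, P3h2, Tll1 and Tll2) and 1 fell (Ddr2), which is 10.9% against 6.0% of all genes. The difference between this share and that of the collagens was not tested. Of the 46, 39 were above background in 1 or both groups. In the fit with only genes above background, 5 pathway genes were called higher and 1 lower, where 11.3% of all genes in that fit were called. Loxl2 lay on a row shared with other genes, and Fkbp10, Adamts2 and Gp6 were not used here.

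Among 20 genes of chain folding, hydroxylation and export, Creb3l1 and P3h2 rose and 0 fell. Creb3l1 encodes a transcription factor of the endoplasmic reticulum that activates Col1a1 in osteoblasts. It stood at 6.34, 6.44 and 6.30 in Nkx2-1 high and at 5.38, 5.23 and 5.50 in Nkx2-1 low, 1.98-fold higher (0.99 ± 0.09, limma adjusted p = 0.000272). It thus rose where Col1a1 fell. P3h2, a prolyl 3-hydroxylase that acts on type IV collagen, stood at 8.11, 8.17 and 8.28 against 7.62, 7.67 and 7.82, 1.40-fold higher (0.49 ± 0.09, limma adjusted p = 0.0103), where Col4a1 and Col4a2 fell. The collagen chaperone gene Serpinh1 had levels of 7.90 ± 0.01 (SD, n = 3) in the high fraction against 7.95 ± 0.01, a difference of -0.05 with a 95% interval from -0.21 to 0.11. The prolyl 4-hydroxylase subunit gene P4ha1 differed by -0.23 (95% interval -0.45 to -0.01, limma adjusted p = 0.231). Plod2, a lysyl hydroxylase gene of telopeptide cross-links, differed by -0.41 ± 0.12 and did not pass (limma adjusted p = 0.0829), but passed without Nkx2-1 high replicate 3 (adjusted p = 0.0234), with the replicate block (0.0414), with a mean-variance trend (0.0394) and with array weights (0.0350), with adjusted p from 0.0234 to 0.237 over the alternatives.

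Of 7 measured genes of propeptide removal, 2 rose and 0 fell. Tll2 stood at 5.23, 5.33 and 5.34 in Nkx2-1 high and at 4.75, 4.59 and 4.44 in Nkx2-1 low, 1.63-fold higher (0.71 ± 0.09, limma adjusted p = 0.00216). Tll1, like Tll2 the gene of a tolloid protease that trims procollagens, was 1.29-fold higher (0.36 ± 0.09, limma adjusted p = 0.0365), with a mean in Nkx2-1 low of 4.35, next to the background level. Tll1 lost the call without Nkx2-1 high replicate 1, 2 or 3 or Nkx2-1 low replicate 2 or 3 (adjusted p up to 0.128), with all array rows in the fit (0.051) and without both samples numbered 3 (0.177). Bmp1, the main procollagen C-proteinase gene, differed by 0.20 and Adamts3, of an N-proteinase, by 0.58 ± 0.16, neither past the test (limma adjusted p = 0.217 and 0.0636). Adamts3 passed under some alternatives, such as the replicate block, median centring and the fit without Nkx2-1 low replicate 3. Of 5 measured cross-linking genes, 0 were called by limma. Without adjustment, at p under 0.05, 2 were higher and 0 lower, where 8.57% of all genes were higher and 10.4% lower. Lox, the gene of lysyl oxidase, stood at 5.28 and 5.30 (difference -0.01, 95% interval -0.20 to 0.17).

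Of 9 measured receptor and uptake genes, 1 fell. Ddr2, a receptor tyrosine kinase gene of mesenchymal cells whose product binds fibrillar collagens, stood at 7.61, 7.55 and 7.03 in Nkx2-1 high and at 8.24, 8.28 and 8.23 in Nkx2-1 low. It was 1.80-fold lower (-0.85 ± 0.14, limma adjusted p = 0.0069), with the sample numbered 3 the lowest of Nkx2-1 high. Ddr1, the epithelial relative, differed by 0.19 and the integrin gene Itgb1, the shared beta chain of collagen-binding integrins, by -0.02 (95% interval -0.25 to 0.21). Of 5 collagenase genes, 0 were called by limma, and Mmp8 and Mmp13 were not above background. Without adjustment, at p under 0.05, 1 collagenase gene was higher and 0 lower, where 8.57% of all genes were higher and 10.4% lower.

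**Figure D4:**
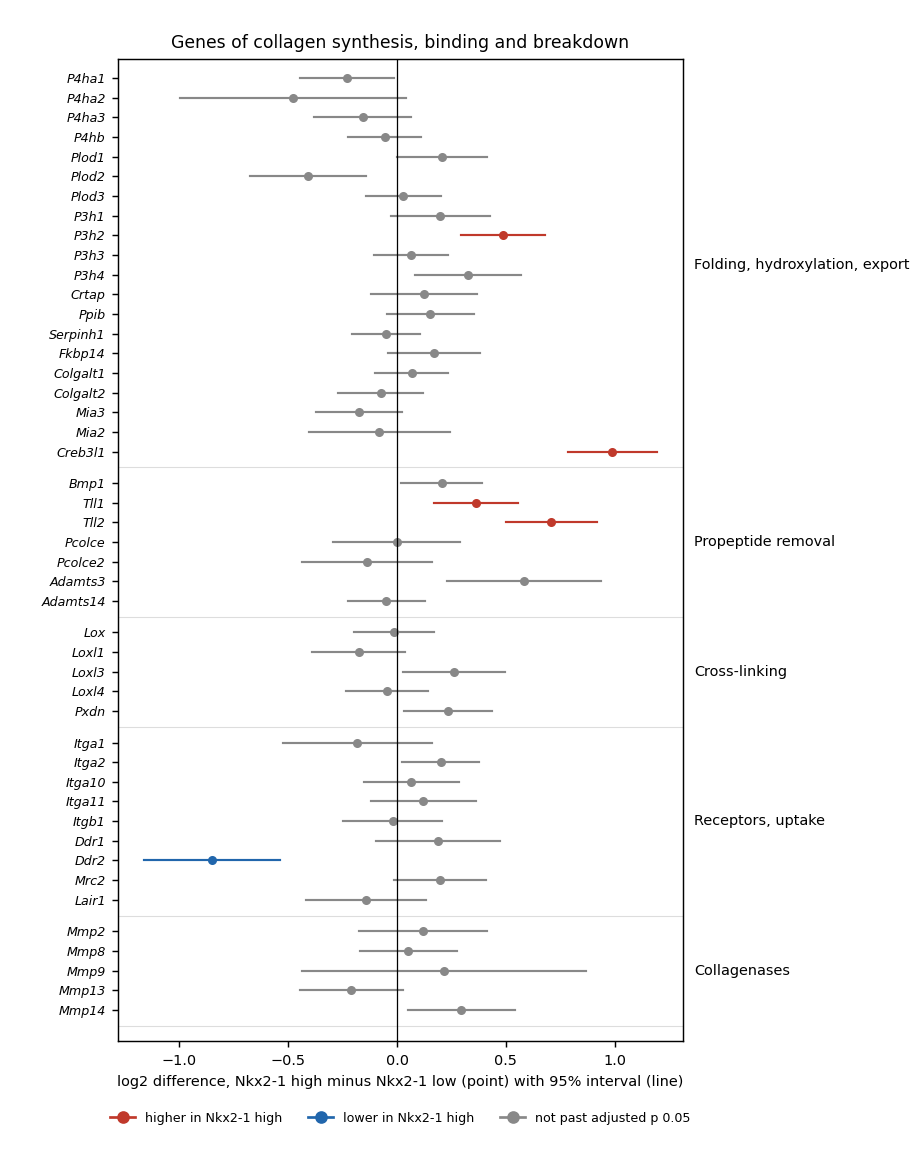
Log2 difference (points, Nkx2-1 high minus Nkx2-1 low, 3 samples per group) with its 95% interval (lines) for the 46 measured genes of collagen synthesis, binding and breakdown, ordered by role; red marks genes that rose, blue genes that fell and grey genes that did not pass the test. Creb3l1, P3h2, Tll1 and Tll2 lie to the right and Ddr2 to the left, and 41 genes did not pass.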

How the data were processed

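The authors deposited 1 column of log2 expression per sample, which was used as given. RMA, which subtracts background, equalises the arrays' distributions and summarises probes, is named in the submitters' processing notes without a version. The genome build used is not given in the sources used here. RNA was amplified with WT-Ovation Pico, per the labels' protocols, which can change relative signals. The log2 scale was taken from RMA and the values (medians per array 4.98 to 5.06). Of 29011 rows, 21789 had 1 symbol in GEO's platform annotation, and the highest-mean row per gene gave 19938 genes. Array batches were not tested. Precision is limited by the number of arrays.

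The 2 groups entered 1 limma fit (limma 3.58.1, R 4.3.3; lmFit then eBayes on 6 samples, the model holding group alone). P-values were adjusted by Benjamini-Hochberg over 19938 genes, with a threshold of 0.05. The members and lists were chosen with earlier results of these data known. Named are called collagen genes, the 4 markers Col1a1, Col1a2, Col4a1 and Col5a2, chains of the pairs, the called pathway genes with up to the 12 largest differences, Serpinh1, P4ha1, Plod2, Lox, Itgb1, Ddr2 and Nkx2-1; members of small counts are also named, after their values were seen. A list's mean log2 level is the mean over its genes in a sample. The fit was first tested on simulated data with 200 changed genes. It recovered 40.5% of them at a log2 change of 0.5, 92.5% at 1.0 and 100.0% at 2.0. A gene that did not pass may thus still differ by an amount of that smaller size. Alternatives were a replicate block, median centring, cyclic loess, only genes above background, robust eBayes with a mean-variance trend, array weights, the mean over a gene's rows, all rows in 1 fit and leaving out each sample. Leaving out both samples numbered 3 was chosen after seeing the data. Figures were drawn with matplotlib 3.10.9.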

Additional observations from a re-analysis of the deposited data

How the results depend on the processing

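All 7 collagen genes that fell kept the call under every alternative run, as did Col12a1 and Col25a1. The count that rose, 5, was 2 to 4 in the fits without 1 sample and 2 without both samples numbered 3, where Col5a2, Col4a6 and Col9a2 lost the call (adjusted p up to 0.150). The pathway genes that fell, 1, were 2 with the replicate block, with the mean-variance trend and with array weights (Ddr2 and Plod2), 2 without both samples numbered 3 (Ddr2 and P4ha2) and from 1 to 3 in the fits without 1 sample (Ddr2, P4ha2 and Plod2 without Nkx2-1 high replicate 3). Over all genes the 1196 calls were 624 to 1086 in the fits without 1 sample. The cause was not tested, beyond there being fewer samples. With the replicate number as a block, 1470 genes and 11 collagen genes were called. The deviations of same-numbered samples correlated at 0.181, -0.004 and 0.277 across genes. The samples numbered 1 and 3 correlated best with their own number, and those numbered 2 did not. Deviations from a mean of 3 samples are not independent, so these values cannot decide whether the numbers pair the samples. The main fit did not treat them as pairs. The second principal component (19.7% of the variance) was highest in the sample numbered 1 and lowest in that numbered 3 in both groups, and a batch shared by number was not tested. Signs turned only for small differences that passed no test. With cyclic loess the difference was 0.0049 for Col5a1 and 0.0116 for Itgb1, and with array weights 0.0120 for Itgb1. Without both samples numbered 3 it was -0.0119 for Col4a3 and 0.0286 for Lox. In the fits without 1 sample it ran from -0.0481 to 0.0038 for Col5a1, from -0.0736 to 0.0371 for Lox and from -0.0895 to 0.0544 for Itgb1. Under the alternatives run for pairs, the shift of each of the 8 pairs moved by less than the larger of its group SDs, and that of Col4a2 minus Col4a1 went to -0.0044 without Nkx2-1 high replicate 2. Col4a6, Tll1 and Tll2 in Nkx2-1 low lie near background, which limits their folds.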

Other observations

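Differences between the samples numbered 3 and those numbered 1 ran the same way in both groups for part of the collagen genes, in shares near those of all genes. Col14a1 was lower in number 3 than in number 1 by like amounts in both groups (log2 differences -0.47 in Nkx2-1 high and -0.48 in Nkx2-1 low), and Col3a1 (-0.55 and -0.30), Col6a3 (-0.33 and -0.24) and Col6a1 (-0.35 and -0.20) were lower as well. Col2a1 was higher (0.48 and 0.26). In all, 13 collagen genes (29.5%) were lower and 17 (38.6%) higher in number 3 than in number 1 in both groups, where 26.6% and 33.2% of all genes were. These samples were chosen after their values were seen.

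Col6a5 and Col6a6 were each measured by more than 1 row, and the rows' differences had opposite signs where the second row was below background. The row used for Col6a5 differed by 0.02 and the other row, not above background, by -0.23. For Col6a6 the values were 0.09 for the row used and -0.08 for the other row, also not above background.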
